A study of Homo sapiens with 12 samples.

Results

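The immediate-early and growth-response genes are a set of 55 human protein-coding genes that cells switch on within minutes to hours of a growth or stress signal. They were taken from 20033 protein-coding genes of GENCODE release 44 by a list of names, and all 55 names were found in the annotation. The list was drawn up with earlier results of these data known, so it is not independent of the peaks. hnRNPK was immunoprecipitated from the chromatin of HCT116, an established line of human colorectal carcinoma, and the bound DNA was sequenced (ChIP-seq). All groups overexpressed hnRNPK. They differed in the vector they carried, which expressed the long noncoding RNA CRLM1 in the CRLM1-OE group, had no insert in the empty control and had an antisense insert in the antisense control. Each of the 3 groups had 2 immunoprecipitated libraries and 2 input libraries, 12 samples in all, and each of the 6 peak lists came from 1 immunoprecipitated library set against its input. A single cell line was used, CRLM1 was supplied from a vector, and cells without added hnRNPK were not analysed here. Whether the replicates came from separate cultures was not given in the labels, so the spread between them may be technical.

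Immediate-early genes need no new protein synthesis to be transcribed. Mitogen-activated protein kinase (MAPK) signalling, the serum response factor SRF with its partners, CREB and YAP/TEAD act on factors that already sit at their promoters. Many of the products are transcription factors such as the AP-1 subunits FOS and JUN, EGR1 and MYC, and others are phosphatases and inhibitors that shut the signal off again. The genes tend to be short and to have GC-rich promoters. hnRNPK is a nuclear protein with KH domains that binds C-rich single-stranded DNA and RNA, and it has long been studied at promoters and transcripts of growth-response genes, MYC among them. The question was whether hnRNPK peaks lay at these genes, and whether they did so more with CRLM1-OE.

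The 6 lists held between 1619 peaks (empty control replicate 1) and 4339 peaks (CRLM1-OE replicate 1) on chromosomes 1 to 22, X and Y. Read depth is unknown, so list length could not be scaled to it. The median peak width ranged from 506 to 747 bp and the median GC content from 37.4 to 43.9%, lowest in empty control replicate 1. A peak was assigned to a gene if it shared at least 1 base with the gene body or the 5 kb upstream, and to the gene's transcription start site (TSS) if it came within 1 kb of the 5' end of the gene record. Members were read against all protein-coding genes and against a closer level. This second level was the share among the 100 other protein-coding genes nearest to each member in length and GC content. A shorter gene offers less room for a peak, and the members had a median length of 7.18 kb against 27.5 kb for all protein-coding genes.

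With CRLM1-OE, 7 and 12 of the 55 members carried a peak on the body or upstream, and with the antisense control 6 and 4 did. In the empty control the numbers were 1 and 0. In CRLM1-OE replicate 1 the members' share was 12.7%, against 10.6% of all protein-coding genes and 6.95% of genes of similar length and GC. In CRLM1-OE replicate 2 it was 21.8%, against 9.38% and 7.67%. The members thus stood above both levels in both CRLM1-OE lists, by little over all genes in replicate 1. In antisense control replicate 1 their share was 10.9% against 5.7% and 3.87%, and in replicate 2 it was 7.27% against 5.84% and 3.27%. In the empty control the members stood below the level of all genes. Their shares were 1.82% against 3.5% of all genes and 1.29% of similar genes in replicate 1, and 0 of 55 members against 5.71% and 2.67% in replicate 2.

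As group means, CRLM1-OE had 9.5 ± 3.54 members with a peak, the antisense control 5.0 ± 1.41 and the empty control 0.5 ± 0.707 (SD, n = 2 lists each). Similar genes would have given 4.02, 1.97 and 1.09. The ratio of the members to that level was 2.36 with CRLM1-OE and 2.54 with the antisense control, so these ratios were close although the CRLM1-OE lists were longer. Both CRLM1-OE lists held more members than all 4 control lists. The mean difference from the antisense control was 4.5 members, 2.0 without CRLM1-OE replicate 2 and 7.0 without CRLM1-OE replicate 1. The excess of CRLM1-OE over similar genes was 5.48 members, 3.18 without replicate 2 and 7.78 without replicate 1. When each list was cut to its 1000 highest-scoring peaks, the members with a peak numbered 4 and 9 with CRLM1-OE, 5 and 2 with the antisense control and 0 and 0 with the empty control. At equal list length the CRLM1-OE and antisense ranges therefore overlapped, while no member remained in the empty control. The share of all genes at that length was 3.02 and 4.02%, 2.79 and 2.73%, and 2.13 and 2.09%.

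**Figure D1:**
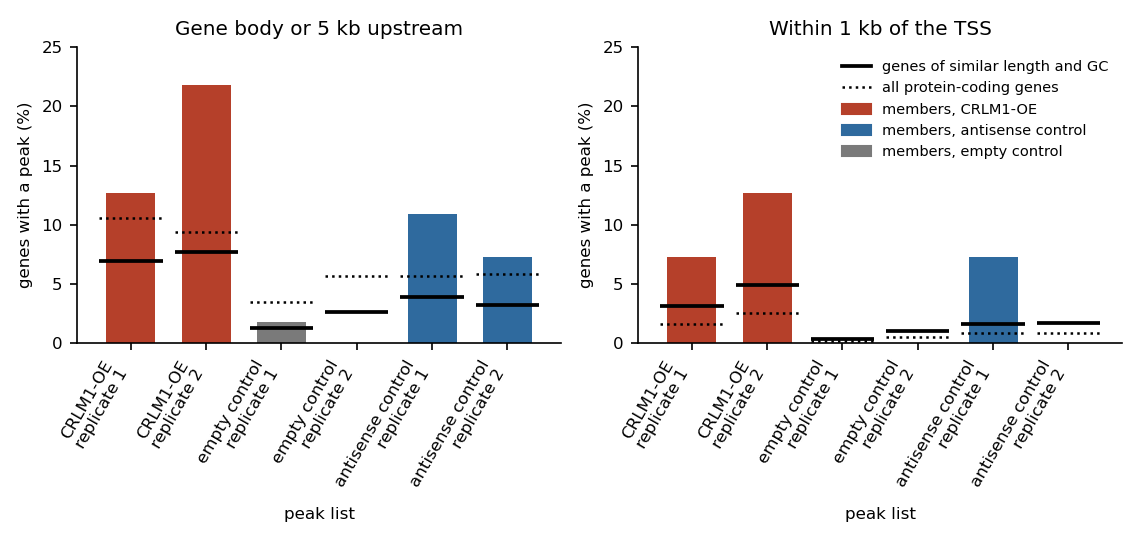
Share of genes with a peak in each list (y axis, percent) for the body or 5 kb upstream (left) and for the 1 kb around the TSS (right). Bars are the 55 members, solid lines the genes of similar length and GC and dotted lines all protein-coding genes; the bars pass both lines in both CRLM1-OE lists and in antisense control replicate 1 (in replicate 2 on the left only), and no bar stands at the TSS in the empty control.

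Close to the TSS the members were set further apart from all genes, but not clearly so from similar genes. The ratio of members to similar genes was 2.46 at the TSS with CRLM1-OE, against 2.36 on the body or upstream. With the antisense control it was 2.13, against 2.54. CRLM1-OE replicate 1 had 4 members with a TSS peak (7.27%, against 1.65% of all protein-coding genes and 3.18% of similar genes), and replicate 2 had 7 (12.7%, against 2.59% and 4.96%). Antisense control replicate 1 also had 4 members (against 0.839% and 1.67%), whereas replicate 2 had 0 (against 0.889% and 1.75%). Neither empty control list had any, where 0.19% and 0.544% of all genes and 0.4% and 1.0% of similar genes had one. At the rate of similar genes these empty control lists would have held 0.22 and 0.55 members, so a count of 0 there says little. The group means were 5.5 ± 2.12 members with CRLM1-OE, 2.0 ± 2.83 with the antisense control and 0.0 ± 0.0 with the empty control (SD, n = 2 lists each). The antisense mean rested on replicate 1 alone.

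Over all 6 lists, 19 of the 55 members had a peak on the body or upstream in at least 1 list (34.5%, against 28.2% of all genes and 19.7% of similar genes), and 12 had a TSS peak (21.8%, against 5.73% and 10.7%). Few members were called in both lists of a group. Both CRLM1-OE lists held FOSL1, JUND, NR4A2, GADD45B and PPP1R15A, 5 members (9.09%) where 2.52% of all genes and 1.95% of similar genes were in both. Both antisense lists held 1, IER2 (against 0.884% and 0.364%), and both empty lists 0 (against 0.669% and 0.182%). Of the 5 members, FOSL1 and PPP1R15A were in no control list, 2 members where 1.05% of all genes and 1.05% of similar genes were, which is 0.58 members at that rate. With TSS peaks, GADD45B alone was in both CRLM1-OE lists (1 member, against 0.349% and 0.709%), and 0 members were in both lists of the empty control (against 0.02%) or of the antisense control (against 0.0549%). TSS peaks in both CRLM1-OE lists but without any control call were found at 0 members, against 0.205% of all genes.

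**Figure D2:**
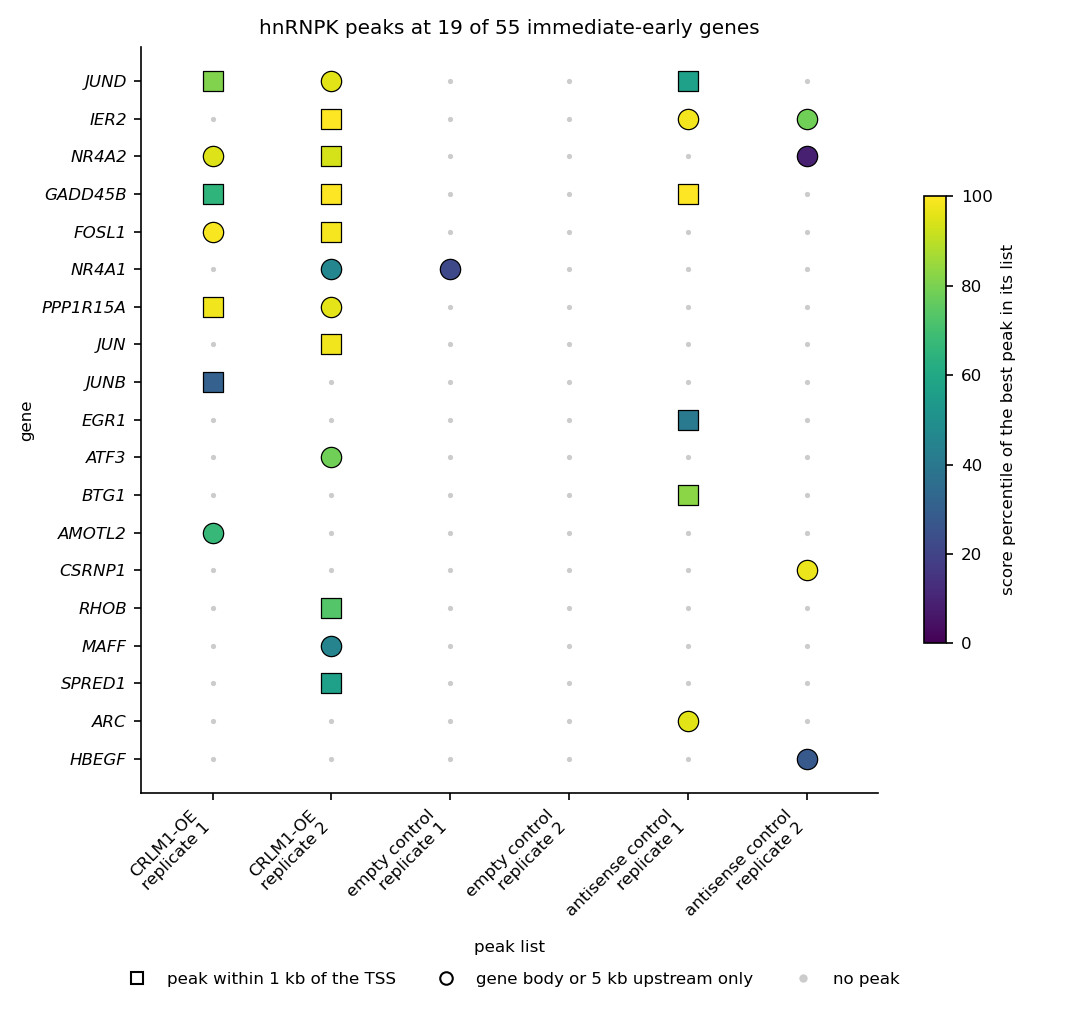
The 19 members with a peak in at least 1 list (rows) by list (columns). Squares mark a peak within 1 kb of the TSS and circles a peak elsewhere on the body or 5 kb upstream, and the colour is the score percentile of the gene's best peak in its list, wherever that peak lies; only NR4A1 has a mark under the empty control.

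The AP-1 subunits, which pair up to bind TGANTCA elements, supplied 5 of the 19 members with a peak. Of the 8 subunits, 3 and 4 had a peak in the CRLM1-OE lists, 0 and 0 in the empty control and 1 and 0 in the antisense control. In the same order, the shares of all genes were 10.6 and 9.38%, 3.5 and 5.71%, and 5.7 and 5.84%. A count of 0 among 8 genes thus says little. In at least 1 list, 28.2% of all genes had a peak. FOSL1, the FOS-like subunit of invasive carcinoma cells, lies at chr11:65892049-65900573 on the minus strand (GRCh38). In CRLM1-OE replicate 2 a peak at chr11:65899227-65900805 covered its TSS and ranked 118 of 3163 by score. In CRLM1-OE replicate 1 the FOSL1 call came from a peak at chr11:65890145-65892191, rank 48 of 4339, which shared 143 bases with the 3' end of FOSL1 and otherwise covered its neighbour CCDC85B. A peak of replicate 2 at chr11:65888041-65892359, rank 46, shared 311 bases with FOSL1 and lay over CCDC85B and FIBP as well. Antisense control replicate 1 had a peak at chr11:65888138-65889666, rank 238 of 2262, beyond the end of FOSL1 and within the stretch of that replicate 2 peak, and CRLM1-OE replicate 1 had a further peak there at rank 283. The region that both CRLM1-OE lists shared at FOSL1 was thus the one over its neighbours, and the TSS peak of FOSL1 was in 1 list.

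JUN, the founding AP-1 partner, had 1 peak, in CRLM1-OE replicate 2, at chr1:58783118-58785818 across its TSS (rank 64 of 3163). That peak also touched LINC01135 and another long noncoding RNA gene, both with starts within 1 kb of it. JUND, a JUN family member that is present in unstimulated cells, had peaks in 3 lists at opposite ends of its short body (chr19:18279694-18281622, minus strand). In CRLM1-OE replicate 1 the peak chr19:18281195-18281916 covered the TSS (rank 821 of 4339). The peak of CRLM1-OE replicate 2, chr19:18278734-18280592 (rank 145 of 3163), and that of antisense control replicate 1, chr19:18279120-18280717 (rank 985 of 2262), overlapped each other at the 3' end. The antisense peak also came within 1 kb of the TSS of this short gene, so it counted as a TSS peak. JUNB had 1 TSS peak, chr19:12791269-12791995 in CRLM1-OE replicate 1, low in its list (rank 3017 of 4339), which also touched HOOK2. ATF3, a stress-induced partner of the JUN proteins, had an intronic peak in CRLM1-OE replicate 2, and FOS, FOSB and FOSL2 had none in any list. The bases upstream of JUN and JUND are shown because a peak covered the whole stretch in CRLM1-OE, that of JUN in replicate 2 and that of JUND in replicate 1. They are from the RefSeq promoter table (GRCh38.p14), 5' to 3' on the minus strand, from chr1:58784049-58784297 for JUN and chr19:18281623-18281872 for JUND. Capitals mark CCCTCCC or CTCCCC on either strand, letters of the kind that hnRNPK is known to bind.
JUN: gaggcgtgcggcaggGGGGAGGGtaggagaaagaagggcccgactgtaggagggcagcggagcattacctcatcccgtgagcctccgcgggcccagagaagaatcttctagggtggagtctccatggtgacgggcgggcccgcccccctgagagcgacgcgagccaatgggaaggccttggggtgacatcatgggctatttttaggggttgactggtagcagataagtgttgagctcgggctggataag
JUND: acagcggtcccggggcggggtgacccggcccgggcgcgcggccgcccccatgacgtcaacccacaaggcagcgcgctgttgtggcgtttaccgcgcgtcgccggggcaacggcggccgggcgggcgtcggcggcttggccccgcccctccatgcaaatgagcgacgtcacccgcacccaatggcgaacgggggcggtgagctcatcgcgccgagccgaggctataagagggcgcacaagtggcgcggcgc

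The capitals in JUN are 1 overlapping pair of matches, 235 bases before the start, on the minus strand of the gene. JUND had neither C-rich motif in 250 bases, although 74.8% of these were G or C. It had the full CREB element TGACGTCA 200 bases before its start. Such matches are letters only, and no match says only that these letters were not in the window.

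Among the EGR, NR4A and CSRNP1 factors, 4 of 8 had a peak in some list, where 28.2% of all genes did. NR4A2, an orphan nuclear receptor induced by growth factors and cyclic AMP, had peaks in 3 lists, all at different places on its 17912 bp (chr2:156324437-156342348, minus strand). The CRLM1-OE replicate 2 peak, chr2:156340657-156343238, covered the TSS as taken here, the 5' end of the gene record (rank 205 of 3163). The replicate 1 peak, chr2:156335370-156336006, lay 6660 bp into the gene record by its midpoint (rank 229 of 4339). Both midpoints lay outside the main transcript of NR4A2. The antisense control replicate 2 peak was far down its list, at rank 2028 of 2224. NR4A1 had low-ranked peaks more than 14 kb into the gene record, in CRLM1-OE replicate 2 (rank 1711) and empty control replicate 1 (rank 1261 of 1619). CSRNP1 had an intronic peak in antisense control replicate 2 at rank 69 of 2224. EGR1, the zinc finger factor whose promoter is a standard model of SRF-driven transcription, had a peak at its TSS in antisense control replicate 1 and in no CRLM1-OE list. That peak, chr5:138464976-138465956, ranked 1340 of 2262. EGR2, EGR3, EGR4 and NR4A3 had no peak.

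The 250 bases before the EGR1 start (chr5:138465229-138465478, plus strand, RefSeq table, GRCh38.p14) are shown because the antisense control peak covered them and because they hold the CArG boxes to which SRF binds. Capitals mark the C-rich motif CTCCCC on the opposite strand.
EGR1: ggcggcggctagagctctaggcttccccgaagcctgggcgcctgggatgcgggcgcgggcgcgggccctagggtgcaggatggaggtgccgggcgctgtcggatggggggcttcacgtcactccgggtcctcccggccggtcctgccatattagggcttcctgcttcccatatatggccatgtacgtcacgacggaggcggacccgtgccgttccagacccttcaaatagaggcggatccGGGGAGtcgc

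There were 2 CArG boxes, starting 105 and 83 bases before the start, and a CArG box was found in 1.15% of all 15345 promoters of the table. The 1 match to CTCCCC started 10 bases before the start.

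Of the 4 IER genes only IER2, a small nuclear protein induced by serum, had peaks, and it carried them in both antisense lists. Of all genes, 28.2% had a peak in some list. IER2 (chr19:13150411-13154911, plus strand) had 3 peaks in CRLM1-OE replicate 2. The strongest, chr19:13152871-13156247, ranked 9 of 3163 and also touched long noncoding RNA genes with starts within 1 kb of it. Another, chr19:13150023-13151872, ranked 103 and covered the TSS of IER2 and that of the divergent gene STX10. The last, chr19:13146745-13147685, ranked 3009 and lay within STX10. Antisense control replicate 1 had peaks at chr19:13154747-13156312 (rank 43 of 2262) and chr19:13153758-13154679 (rank 1547), and antisense control replicate 2 at chr19:13154833-13156627 (rank 480 of 2224). CRLM1-OE replicate 1 had a peak here too, chr19:13155099-13156266 at rank 121 of 4339, but it began 188 bp past the end of the gene and was not counted by the rule. The same downstream stretch was thus called in 4 lists, both CRLM1-OE and both antisense, and in neither empty control list. In antisense control replicate 2 the IER2 call rested on 79 bases at the end of the gene.

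GADD45B, a growth arrest and stress gene, also had peaks across and past its end. It lies at chr19:2476122-2478259 on the plus strand. In CRLM1-OE replicate 1 the peaks were chr19:2476537-2477200 (rank 2477 of 4339) and chr19:2477856-2478618 (rank 1511). In CRLM1-OE replicate 2 they were chr19:2476436-2477997 (rank 211 of 3163) and chr19:2478027-2480201 (rank 6). In antisense control replicate 1 they were chr19:2475846-2478049 (rank 79 of 2262) and chr19:2478094-2480797 (rank 6). The first peak of each CRLM1-OE list came within 1 kb of the TSS without covering it, whereas the first antisense peak covered it. Antisense control replicate 2 had a peak at chr19:2478821-2480320, rank 12 of 2224, which lay wholly past the gene and was not counted. The peaks past the gene end were among the 12 highest of 3 lists, CRLM1-OE replicate 2 and both antisense lists, while CRLM1-OE replicate 1 had only middling peaks and the empty control lists none.

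The sequences past the ends of IER2 and GADD45B come from the longest stretch past each end under the most lists' peaks. Only bases past the gene end were searched. Within GADD45B, chr19:2476537-2477200 also lay in peaks of 3 lists, both CRLM1-OE lists and antisense control replicate 1. At IER2, chr19:13155099-13156247 (1149 bp) lay in peaks of 4 lists, and its central 250 bases are chr19:13155548-13155797. At GADD45B, chr19:2478821-2480201 (1381 bp) lay in peaks of 3 lists, and its central 250 bases are chr19:2479386-2479635. Both stretches lie in no GENCODE gene, were read from GRCh38 on the plus strand, and hold 69.6% and 65.6% G or C. The 245 bases before the GADD45B start that lie outside its exons (chr19:2475877-2476121, plus strand, RefSeq table, GRCh38.p14) are added, since the peak of antisense control replicate 1 covered them. Capitals mark CCCTCCC or CTCCCC on either strand.
IER2 past the gene end: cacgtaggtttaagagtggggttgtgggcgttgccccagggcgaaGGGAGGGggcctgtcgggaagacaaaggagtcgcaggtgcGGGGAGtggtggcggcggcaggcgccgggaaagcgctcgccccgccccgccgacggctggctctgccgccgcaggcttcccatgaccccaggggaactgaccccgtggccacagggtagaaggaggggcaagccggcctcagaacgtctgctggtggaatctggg
GADD45B past the gene end: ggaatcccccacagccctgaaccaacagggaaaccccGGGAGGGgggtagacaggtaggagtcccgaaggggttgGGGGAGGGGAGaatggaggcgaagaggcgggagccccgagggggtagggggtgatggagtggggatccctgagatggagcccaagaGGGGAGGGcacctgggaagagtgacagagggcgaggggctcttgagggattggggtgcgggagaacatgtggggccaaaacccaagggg
GADD45B upstream: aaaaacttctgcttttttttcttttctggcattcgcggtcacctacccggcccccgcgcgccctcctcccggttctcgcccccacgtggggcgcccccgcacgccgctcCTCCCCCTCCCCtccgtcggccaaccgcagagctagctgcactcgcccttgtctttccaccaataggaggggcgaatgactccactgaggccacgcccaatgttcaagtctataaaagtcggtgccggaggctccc

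The stretch past GADD45B held 3 matches to CCCTCCC and 3 to CTCCCC, overlapping ones included, all on the minus strand. That past IER2 held 1 of each, and that before GADD45B 1 and 2 on the plus strand. In the central 250 bases of all 16214 peaks, CCCTCCC was found in 10.9% and CTCCCC in 19.2%. Both are found more often in GC-rich sequence, and these stretches were GC-rich.

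**Figure D3:**
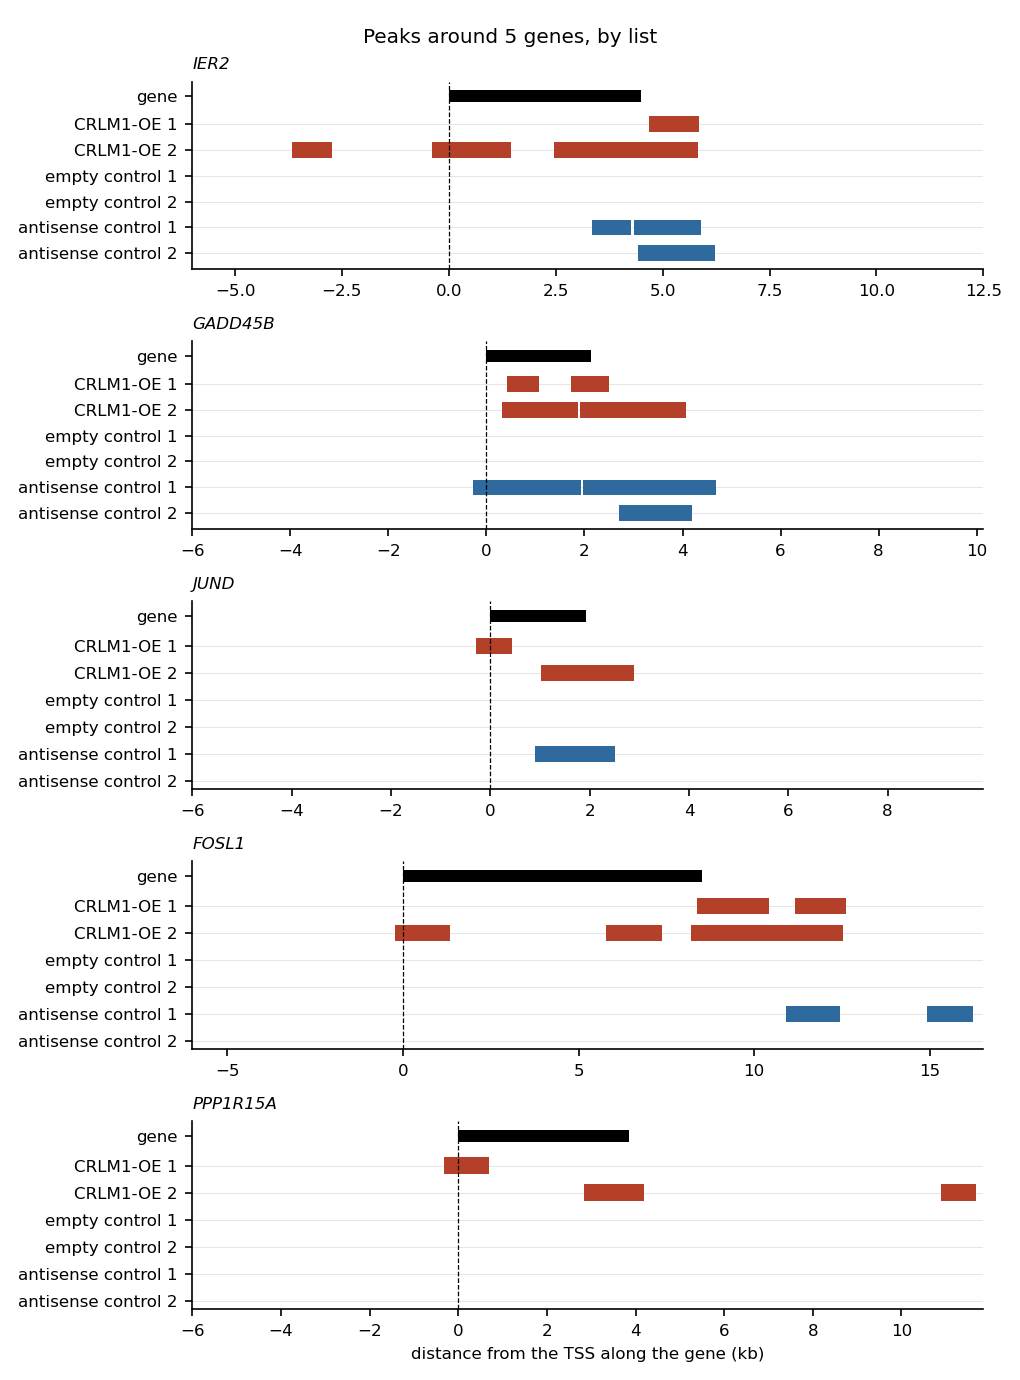
Peaks of the 6 lists around IER2, GADD45B, JUND, FOSL1 and PPP1R15A, by distance from the TSS along the gene (x axis, kb); each bar is a peak at its width, the black bar is the gene and the dashed line the TSS. Past the end of IER2 the bars overlap in 4 lists, and past GADD45B in 3 at a time. The bar of CRLM1-OE replicate 1 reaches only a short way past GADD45B. The empty control rows are bare.

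Beside GADD45B, the survival, stress and growth arrest genes with a peak were PPP1R15A, BTG1, RHOB and ARC, 5 of 11 in all. Of all genes, 28.2% had a peak in some list. The 11 genes gave 2 and 3 with a peak in the CRLM1-OE lists, 0 and 0 in the empty control and 3 and 0 in the antisense control. In the same order, the shares of all genes were 10.6 and 9.38%, 3.5 and 5.71%, and 5.7 and 5.84%. A count of 0 among 11 genes thus says little. PPP1R15A, also known for its product GADD34, which turns off the integrated stress response, had a peak in each CRLM1-OE list and none in the controls. These were at different ends of the gene (chr19:48872212-48876059, plus strand). The replicate 1 peak, chr19:48871900-48872912, covered the TSS (rank 90 of 4339), with its midpoint in the gene record outside the main transcript. The replicate 2 peak, chr19:48875048-48876399, lay over the end of the gene with its midpoint in coding exon sequence (rank 127 of 3163). BTG1, an antiproliferative gene, had a TSS peak in antisense control replicate 1 (rank 391 of 2262). That peak also touched BTG1-DT, a long noncoding RNA gene. RHOB, a small GTPase gene, had a TSS peak in CRLM1-OE replicate 2 (rank 841 of 3163). The RHOB peak came within 1 kb of the TSS without covering it, and its midpoint lay in the 3' UTR. ARC had a peak at its 3' end in antisense control replicate 1 (rank 103 of 2262). MCL1, PHLDA1, SGK1, TRIB1, NFKBIA and TNFAIP3 had none.

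The other roles held few peaks. Each was small, and 28.2% of all genes had a peak in some list. Of 9 MAPK feedback inhibitors, only SPRED1, a RAS-pathway inhibitor, had a peak, at its TSS in CRLM1-OE replicate 2 (chr15:38251778-38252887, rank 1379 of 3163), and none of the DUSP or SPRY genes did. Of 6 other transcription factors only MAFF had one (CRLM1-OE replicate 2, rank 1732), in an intron and also within PLA2G6. MYC and SRF had no peak in any list, and the nearest peak to the MYC TSS was 425.1 kb away in CRLM1-OE replicate 1 and 628.4 kb in replicate 2. Of 4 YAP/TEAD-responsive genes AMOTL2 had a peak in CRLM1-OE replicate 1 (rank 1426 of 4339), and CCN2, ANKRD1 and AJUBA had none. Of 5 secreted ligands HBEGF had one in antisense control replicate 2 (rank 1609 of 2224), and AREG, EREG, LIF and CXCL8 had none. In all, 36 members had no peak in any list, 12 had one in 1 list, 3 in 2 lists and 4 in 3 lists.

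For members with a peak in both lists of some group, the score percentile of the best peak in each list is given as a description, with 0 for a list without one. No test is given, because these members were chosen by the same calls. FOSL1 stood at 98.9 and 98.6 in the CRLM1-OE lists and PPP1R15A at 97.9 and 96.0, both at 0 in the 4 control lists. The FOSL1 values are those of the peaks over its neighbours, which shared 143 and 311 bases with FOSL1. A 0 means no peak by the gene rule, and antisense control replicate 1 had a peak at percentile 89.5 just beyond FOSL1. NR4A2 stood at 94.7 and 93.6 with CRLM1-OE and at 8.81 in antisense control replicate 2, and JUND at 81.1 and 95.4 with CRLM1-OE and at 56.5 in antisense control replicate 1. That both CRLM1-OE lists stood above all control lists at these 4 members was largely fixed by that choice. GADD45B stood at 65.2 and 99.8 with CRLM1-OE against 99.8 and 0.0 with the antisense control. IER2 stood at 0.0 and 99.7 with CRLM1-OE against 98.1 and 78.5 with the antisense control. For GADD45B and IER2 the groups overlapped. The 0.0 of antisense control replicate 2 at GADD45B leaves out its peak past the gene, at percentile 99.5. That of CRLM1-OE replicate 1 at IER2 leaves out its peak 188 bp past the gene end, at percentile 97.2. The 78.5 of antisense control replicate 2 at IER2 rested on 79 bases.

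Chromosome 19, which is gene-dense and GC-rich, held 6 members, and 5 of them had a peak: JUNB, JUND, IER2, GADD45B and PPP1R15A, with FOSB the exception. Of all protein-coding genes on this chromosome 30.6% had one on the body or upstream, as had 24.3% of the genes similar to these 6. All 5 members had a TSS peak in some list. Of all protein-coding genes on chromosome 19, 9.35% had one, as had 11.2% of the genes similar to these 6. The 4 TSS members of CRLM1-OE replicate 1 were all among them. On the other chromosomes 14 of 49 members had a peak on the body or upstream, against 28.0% of all genes there and 19.1% of similar genes. A TSS peak was found at 7 of the 49, against 5.44% and 10.7%. Without chromosome 19 the TSS members numbered 0 and 5 in the CRLM1-OE lists, 0 and 0 in the empty control and 2 and 0 in the antisense control. In the same order, the shares of all genes there were 1.56 and 2.5%, 0.178 and 0.512%, and 0.787 and 0.841%. A count of 0 among these 49 members thus says little. The mean excess of CRLM1-OE over similar genes at the TSS was 3.26 members with chromosome 19 and 0.5 without it. On the body or upstream it was 5.48 and 2.05. The excess at the TSS in CRLM1-OE replicate 1 thus lay on 1 chromosome. This split was chosen after the data were seen.

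The peaks at members, pooled over lists, differed from the general run of all peaks. Peaks at other genes were not compared. There were 38 of them, 8 and 17 in the CRLM1-OE lists, 1 and 0 in the empty control and 8 and 4 in the antisense control. Of the 38, 28 scored above the median of their list, and the median score percentile of the 38 was 81.9. CRLM1-OE replicate 2 gave 14 of these 28, with a median percentile of 93.6. In antisense control replicate 2 only 2 of 4 scored above the median, with a median percentile of 53.1. The exceptions to high scores included the only empty control peak (NR4A1, percentile 22.1). The median GC content of the 38 was 60.6% against 41.9% for all peaks, and their median width was 1160 bp against 629 bp. By midpoint 9 lay in introns, 7 past the gene end, 6 in 3' UTRs, 4 in coding exons, 4 upstream, 3 in 5' UTRs and 5 in the gene record outside its main transcript. Of the 38 peaks, 15 came within 1 kb of the TSS and 11 covered it.

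**Figure D4:**
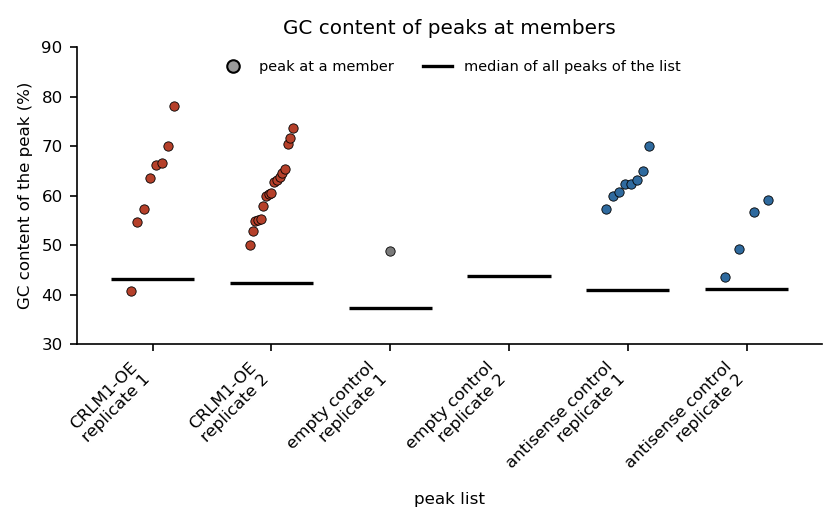
GC content (y axis, percent) of each peak at a member (points) by list (x axis), with the median of all peaks of that list as a line. All points but 1, the NR4A2 peak of CRLM1-OE replicate 1, lie above their list's line.

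The members are themselves GC-rich. The 2 kb centred on their TSS had a median of 61.8% GC against 55% for all protein-coding genes, and an observed to expected CpG ratio of 0.731 against 0.614. The 12 members with a TSS peak had a median of 63.6% GC and a ratio of 0.776, and the 36 members with no peak had 61.7% and 0.76. The medians of members with and without peaks thus lay close on these measures. Their median lengths were 4.17 and 7.18 kb. The part of GC content and gene length in the members' counts was not tested beyond the level of similar genes.

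Distance to the nearest peak was also measured. Within 10 kb of the TSS, in either direction, there was a peak at 8 and 10 members in the CRLM1-OE lists (14.5 and 18.2%, against 5.41 and 5.64% of all genes), 7 and 5 in the antisense control (12.7 and 9.09%, against 2.72 and 2.88%) and 0 and 0 in the empty control (against 0.998 and 2.36%). The median distance from a member's TSS was 177 and 192 kb in the CRLM1-OE lists, where it was 209 and 252 kb for all genes and 148 and 166 kb for similar genes. In the antisense control it was 423 and 327 kb, against 412 and 403 kb for all genes and 287 and 260 kb for similar genes. In the empty control it was 679 and 360 kb, against 735 and 434 kb and 819 and 283 kb. By the median the members thus lay farther from a peak than similar genes in 5 of 6 lists, while more of them than of all genes had a peak within 10 kb in the 4 CRLM1-OE and antisense lists. When 5 kb past the gene end was added, IER2 and DUSP5 joined in CRLM1-OE replicate 1 and FOSL2 in replicate 2. FOSL1, FOSL2, CSRNP1 and CEBPB joined in antisense control replicate 1, and DUSP1 and GADD45B in antisense control replicate 2. The counts were then 9 and 13 with CRLM1-OE, 10 and 6 with the antisense control and 1 and 0 with the empty control. The share of all genes was then 12.2 and 10.9%, 6.45 and 6.61%, and 3.78 and 6.47%.

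Of the 55 members 42 had an entry in the promoter table. CCCTCCC was found in 17 of these 42 promoters (40.5%, against 28.8% of all promoters) and CTCCCC in 26 (61.9%, against 41.9%). TGACG, the core of the CREB element, was in 22 (52.4%, against 25.8%) and TGACGTCA in 6 (14.3%, against 2.36%). A CArG box was in 2 (4.76%, against 1.15%) and the AP-1 element TGANTCA in 2 (4.76%, against 5.02%). Motifs were sought on both strands, and each TGACGTCA also counts as TGACG. Of the 10 TSS-peak members in the table, 4 had CCCTCCC and 6 had CTCCCC, shares close to those over all 42. SPRED1, with 78.4% G or C in its 250 bases, had neither, as JUND.

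Other genes of the same pathways were counted in the same way. Of 36 upstream regulators, the receptors, RAS and MAPK kinases and the SRF, CREB, TEAD and NF-kappaB factors that drive the members, 1 and 7 had a peak on the body or upstream in the CRLM1-OE lists, 1 and 0 in the empty control and 2 and 1 in the antisense control. Over all lists that was 11 (30.6%, near the 28.2% of all genes), and only YAP1 had a TSS peak (2.78% of the list, against 5.73%). TEAD3 alone was in both CRLM1-OE lists, where 2.52% of all genes were. Of 38 further growth-response genes, 7 and 13 had a peak with CRLM1-OE, 1 and 2 in the empty control and 0 and 4 in the antisense control. In the same order, the shares of all genes were 10.6 and 9.38%, 3.5 and 5.71%, and 5.7 and 5.84%. They are the level for the 36 regulators as well. The list of 38 was drawn up with some of its genes known to carry peaks in these data, so its count is not independent of them. It held 9 genes with a TSS peak in some list (23.7%, against 5.73% of all genes). Both CRLM1-OE lists held 7 of the 38, where 2.52% of all genes were in both. These were CCN1, TNFRSF12A, KLF2, KLF6, ZFP36, ZFP36L1 and MIDN. Antisense control replicate 1, which had 6 of the 55 members, had none of these 38, where 5.7% of all genes had a peak.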

How the data were processed

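hnRNPK ChIP-seq was done in 12 HCT116 samples, 6 immunoprecipitated and 6 input libraries, which the labels put in 3 groups of 2 replicates. According to the methods, cutadapt removed adapters, Bowtie2 placed the reads on GRCh38 and MACS2 (q-value cutoff 0.01) called the peaks of each group over input. That each list is 1 library over its own input was read from the labels. The deposited lists give position, name and a score, the authors' own value, used here only for ranks within a list. No score was under 50.0, which on the older MACS scale is a p-value of 1e-05, so the caller settings are uncertain. Numeric columns left unused numbered 0. Read depth is unknown.

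Peaks on chromosomes 1 to 22, X and Y were set against GENCODE release 44 with Python 3.11.15, numpy 2.4.6, pandas 2.3.3, pysam 0.24.0 and samtools 1.23.1, with figures from matplotlib 3.10.9. The authors' annotation may differ. A gene's similar genes were the 100 protein-coding non-members nearest in standardised log2 length and GC content of the tested interval. They give a level and not a test. Exact permutation of list labels over single members was run, but is not reported since those members were chosen by the same calls. Its smallest p-value is 0.133 for 2 lists against 4 and 0.333 for 2 against 2. The code was tested on simulated lists.

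The 55 members, the role groups and the further gene lists were chosen with earlier results of these data known. Described singly were members with a TSS peak in at least 1 list or a gene peak in at least 2, and the rest are named with their lists. Upstream sequences were to be printed for members with a TSS peak in both lists of a group, which only GADD45B met. JUN, JUND and EGR1, and the stretches past IER2 and GADD45B, were added after the values were seen, from members whose upstream bases lay within a peak. Those of IER2 and PPP1R15A overlapped exons, and 13 members had no entry in the RefSeq promoter table. Alternatives were the 1000 best peaks, peaks above the median score, midpoints, any transcript start, a 500 bp window, no upstream part, 300 similar genes, all genes and leaving out each list.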

Additional observations from a re-analysis of the deposited data

How the results depend on the processing

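Members on the body or upstream are given first. Members in both CRLM1-OE lists numbered 5 in the report, 3 by peak midpoint, 2 when a shared base was required between both lists' peaks and 2 without the members on chromosome 19. Those in no control list besides numbered 2, but 1 by midpoint, 1 with 5 kb on both sides and 1 without chromosome 19. They numbered 3 with the 1000 best peaks, 3 above the median score and 2 to 4 when a list was left out (4 without antisense control replicate 1). By the report's rule, 2.52% of all genes were in both CRLM1-OE lists and 1.05% in both and no control list. These shares were not computed under the changed rules, so the changed counts have no level beside them. CRLM1-OE exceeded the empty control by 9.0 members, and by 5.0 without chromosome 19. The excess of CRLM1-OE over similar genes was 5.48, with 2.05 without chromosome 19 and 3.18 to 7.78 with a list left out (3.18 without CRLM1-OE replicate 2). That of the antisense control was 3.03, with 5.33 for 5 kb on both sides, 1.83 against all genes and 1.32 without chromosome 19. That of the empty control was -0.59, with -2.03 against all genes and -1.47 to 0.29 with a list left out, the sign turning without empty control replicate 2.

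At the TSS, members in both CRLM1-OE lists numbered 1, but 0 with the 1000 best peaks, 0 above the median score, 0 by midpoint, 0 without chromosome 19 and 2 with any transcript start. Those in no control list besides numbered 0, and 0 to 1 with a list left out (1 without antisense control replicate 1). By the report's rule the shares of all genes were 0.349% and 0.205%, and under the changed rules they were not computed. CRLM1-OE exceeded the empty control by 5.5 members, and by 2.5 without chromosome 19, and the antisense control by 3.5, with 1.5 to 5.5 when a list was left out (1.5 without antisense control replicate 2, 5.5 without replicate 1). It exceeded similar genes by 3.26, by 5.04 with any transcript start and by 0.5 without chromosome 19. The empty control's -0.385 became -0.14 with any transcript start. The antisense control's excess of 1.06 ranged from -0.96 without its replicate 1 to 3.08 without its replicate 2.

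For IER2 the difference in score percentile between CRLM1-OE and the 4 control lists ranged from -44.2 to 55.6 with a list left out, being -44.2 without CRLM1-OE replicate 2 and -8.99 without empty control replicate 1 or, in turn, replicate 2. Against the antisense control it ranged from -88.3 to 11.4, the latter without CRLM1-OE replicate 1. For GADD45B against the antisense control it ranged from -17.3, without antisense control replicate 2, to 82.5. These ranges depend on where the rule ends a gene. By it, the peaks just past IER2 in CRLM1-OE replicate 1 and past GADD45B in antisense control replicate 2 were not counted. With the replicate number as a replicate block, FOSL1 differed from the empty control by 98.7, as without it, with no test given. The numbers were not shown to pair the samples. Leaving out chromosome 19 and adding 5 kb on both sides were chosen after seeing the data. In 231 other values the sign did not turn, though for IER2 against the empty control the difference of 49.9 became 0.0 without CRLM1-OE replicate 2. At 1000 peaks a list, CRLM1-OE exceeded the empty control by 6.5 members on the body or upstream and the antisense control by 3.0. Read depth is unknown, and its part was not tested.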
